A study of Mus musculus with 18 samples.

Results

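Cathepsins and lysosomal glycosidases, the enzymes that break down proteins and sugar chains in the lysosome, were followed across the cerebellum of 3 mouse lines that carry altered alleles of Cacna1a, which encodes the pore-forming subunit of the neuronal calcium channel Cav2.1. The members were Ctsa, Ctsb, Ctsd, Ctsh, Ctsl, Ctss, Ctsz, Glb1 and Hexa. They were taken as every probe set on the array that carries exactly 1 of these symbols, which gave 18 probe sets for 9 genes out of 34945 probe sets for 18193 genes. All 9 genes had at least 1 probe set, 5 of them had several, and no filter on dim probe sets was applied.

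RNA of the whole cerebellum of C57BL/6 mice was measured on 18 Affymetrix arrays, with 3 arrays in each of 6 groups. The tested mice were homozygous MPI 118Q knock-in, homozygous Sca6 CtmKO (Ctm knockout) and homozygous MPI 11Q knock-in animals, and each of these lines had wild-type littermates of its own. The labels state an age of 6 weeks for the 118Q knock-in and the Ctm knockout mice. They name no promoter or Cre driver that would limit an allele to a cell type, and they describe 3 mice per group without saying whether littermates were matched one to one.

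Lysosomal hydrolases are made as precursors in the endoplasmic reticulum, tagged with mannose 6-phosphate and delivered to an acidic compartment where they become active. In the brain every cell type holds them, but the set differs between cells. Cathepsin S is the protease by which microglia and macrophages process the chain that guards MHC class II molecules, and cathepsins H and Z are an aminopeptidase and a carboxypeptidase that are also enriched in these cells. Ctss, Ctsh and Ctsz are therefore called microglial members here, from textbook knowledge and not from these arrays. Ctsb and Ctsl encode the general cysteine proteases cathepsins B and L, and Ctsd the aspartic protease cathepsin D. Ctsb, Ctsd and Ctsl, like Ctsz, also stand in the list of activated microglia markers used here, so the classes are not exclusive. Ctsa encodes cathepsin A, a carboxypeptidase that also protects beta-galactosidase, the product of Glb1, in a complex with the sialidase of Neu1. Hexa encodes the alpha subunit of beta-hexosaminidase, whose loss leads to ganglioside storage in neurons.

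Many genes of this family carry in their promoters the E-box CACGTG, which the transcription factor TFEB and its relatives bind, and the longer palindrome TCACGTGA is its form in lysosomal genes. RefSeq promoter windows of build GRCm38.p6, each with 250 bases before and 50 bases after the start of transcription, were matched for 7 of the 9 members, with 8 windows because Ctsa has 2. Promoters of Ctsb and Ctsh were not used here. The E-box CACGTG, which reads the same on both strands, was found in 4 of the 8 windows, those of Ctsl, Ctsd, Glb1 and the downstream window of Ctsa, against 7.15% of 32817 windows of all genes. TCACGTGA, which contains CACGTG and also reads the same on both strands, was found in 2 windows, those of Ctsd and Ctsa, against 0.975% of all windows. The 3 sequences below show the general members that results further on turn on, together with Ctsd as a gene with both forms, each 5′ to 3′ on its own strand with every CACGTG in capitals.
Ctsd, chr7:142387778-142388077, minus strand: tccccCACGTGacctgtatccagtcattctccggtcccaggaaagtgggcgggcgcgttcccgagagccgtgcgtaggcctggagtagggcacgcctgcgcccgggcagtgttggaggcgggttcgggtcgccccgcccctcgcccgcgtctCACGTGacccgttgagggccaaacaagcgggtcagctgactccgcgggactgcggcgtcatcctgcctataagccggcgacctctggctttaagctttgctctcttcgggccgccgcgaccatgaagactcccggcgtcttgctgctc
Ctsa, chr2:164833523-164833822, plus strand: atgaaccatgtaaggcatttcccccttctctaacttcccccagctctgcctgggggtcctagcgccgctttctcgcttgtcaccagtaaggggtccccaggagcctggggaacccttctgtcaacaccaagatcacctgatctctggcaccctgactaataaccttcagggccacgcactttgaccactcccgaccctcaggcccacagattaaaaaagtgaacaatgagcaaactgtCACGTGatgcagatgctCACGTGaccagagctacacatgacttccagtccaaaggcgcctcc
Glb1, chr9:114400828-114401127, plus strand: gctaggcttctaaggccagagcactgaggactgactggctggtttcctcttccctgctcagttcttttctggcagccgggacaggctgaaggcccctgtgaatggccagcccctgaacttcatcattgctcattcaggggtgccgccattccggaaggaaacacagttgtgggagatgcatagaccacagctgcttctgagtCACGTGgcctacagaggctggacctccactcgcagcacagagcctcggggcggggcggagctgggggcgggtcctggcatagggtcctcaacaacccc
In Ctsd the E-boxes begin 245 and 98 bases before the start of transcription. In Ctsa they begin 12 bases before it and 6 bases after it, and in Glb1 48 bases before it. Among the microglial members, neither Ctss nor Ctsz holds the E-box in its window. The Ctss window holds GAGGAAGT, searched on both strands as the core bound by the myeloid factor PU.1, which lies in 3.2% of all windows and in no other member's window. It stands here on the reverse strand, so that its complement ACTTCCTC appears in capitals.
Ctss, chr3:95526536-95526835, plus strand: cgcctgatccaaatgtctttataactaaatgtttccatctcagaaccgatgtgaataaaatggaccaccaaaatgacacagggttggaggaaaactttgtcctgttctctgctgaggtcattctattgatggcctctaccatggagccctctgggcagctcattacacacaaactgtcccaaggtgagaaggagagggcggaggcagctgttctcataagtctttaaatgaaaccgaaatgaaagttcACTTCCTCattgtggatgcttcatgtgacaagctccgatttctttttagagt
These matches describe letters in a window and no binding. The members with an E-box were general enzymes, while Hexa, also a general enzyme, had none of the 3 motifs in its window.

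The values below are log2 expression as the authors summarised it with RMA, a method that corrects background, normalises arrays to one distribution and combines the probes of a set. Array medians lay between 2.38 and 2.55, and the correlation between pairs of arrays between 0.977 and 0.995. The Purkinje cell gene Pcp2 had group means between 10.42 and 10.78 and Calb1 between 9.94 and 10.80, on arrays whose highest value was 12.2. Choroid plexus RNA varied strongly between arrays of one group: Ttr, the most abundant transcript of that epithelium, ran between 5.30 and 12.1. In the 11Q line it also separated the groups, as given beside the 11Q values.

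Across the 9 wild-type arrays, Ctsb was the brightest member on its brightest probe set, with 9.30 ± 0.19 (SD, n = 9). Percentiles were taken from the mean of all 18 arrays, mutants included. Ctsb lay at the 99.2 percentile of all probe sets. Ctsl and Ctsd were next at the 97.5 and 95.6 percentiles. Ctss and Ctsz both stood at 89.6, Hexa at 89.2 and Ctsa at 88.1. Ctsh and Glb1 were the dimmest, at 62.4 and 61.8. The brightness of different probe sets depends on their sequences, so this order places each gene on the array and says nothing of the number of transcripts.

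In none of the 3 lines did a member change by the test used, limma's moderated test over all 18 arrays with Benjamini-Hochberg adjustment over 34945 probe sets and a threshold of 0.05. In the 118Q line 0 of 18 member probe sets were called, where 0.266% of all probe sets were called higher and 0.292% lower. In the Ctm line 0 of 18 were called, where 0.858% of all were called higher and 0.0572% lower. In the 11Q line 0 of 18 were called, as were 0% of all probe sets in either direction. A count of 0 among 18 is near each of these backgrounds. In whole tissue, more or fewer cells of a type and more or less RNA per cell cannot be told apart, which holds for every value below. An unadjusted p under 0.05 was reached by 1 member probe set in the 118Q line (14.1% of all probe sets), 6 in the Ctm line (11% of all) and 1 in the 11Q line (5.24% of all). In simulated data with the 118Q design, 100 probe sets were changed by each of 2 amounts on the log2 scale. Of changes of 0.5, 28% were recovered, and of changes of 1, 91%. These rates belong to the simulation and are not the power for the members. Changes of the size seen in these members may be missed.

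**Figure D1:**
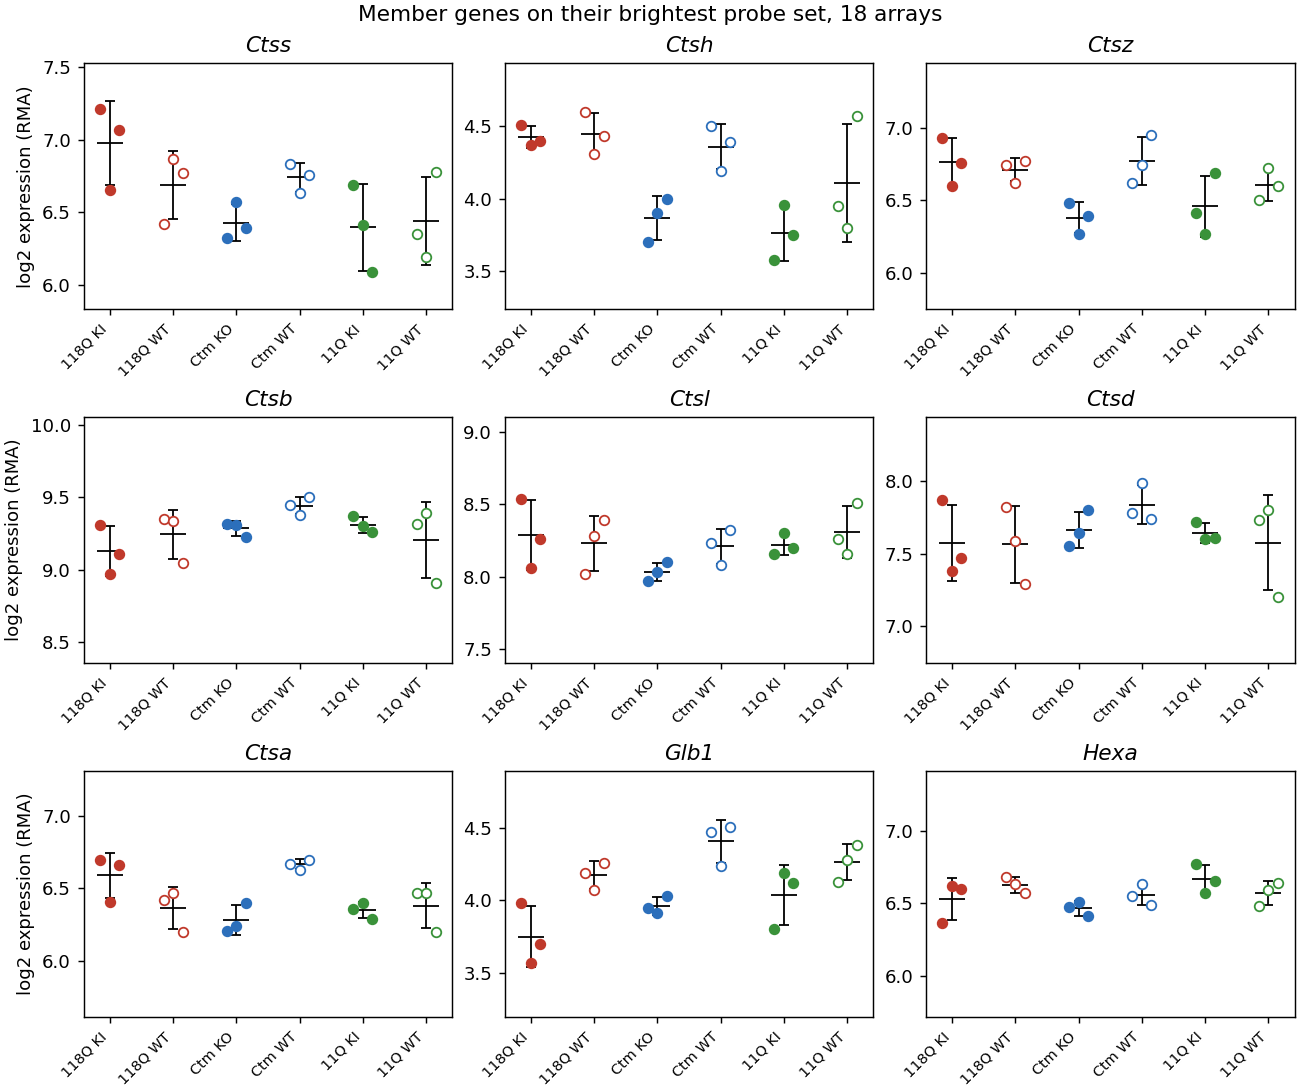
Log2 expression (RMA) of the 9 members on their brightest probe sets, one panel per gene, with every array as a point, mutants filled and wild types open, and the group mean ± SD (n = 3) as bars. In the Glb1 panel the 118Q knock-in and Ctm knockout arrays lie below those of their own wild types, and no panel shows a group that stands wholly above its wild types.

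Glb1, which encodes beta-galactosidase, showed the same sign of difference in all 3 lines, and so did Ctsh. On its brightest probe set Ctsh gave -0.019 in 118Q, -0.49 in Ctm and -0.34 in 11Q. In 118Q knock-in arrays Glb1 stood at 3.98, 3.57 and 3.70, against 4.19, 4.07 and 4.26 in their wild types. All 3 knock-in arrays were lower than all 3 wild-type arrays, which 5.88% of all probe sets also showed in this direction. The Glb1 difference was -0.42 (SE 0.128, 95% interval -0.69 to -0.15, unadjusted p = 0.00414), and the adjusted p of limma's test was 0.13.

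In Ctm knockout arrays Glb1 stood at 3.95, 3.91 and 4.03, against 4.47, 4.24 and 4.51 in Ctm wild types. Again no knockout array reached the lowest wild type. The difference was -0.44 (SE 0.128, adjusted p = 0.131). In 11Q knock-in arrays Glb1 was 3.80, 4.19 and 4.12, against 4.13, 4.28 and 4.38 in 11Q wild types, so that 1 knock-in array lay above the lowest wild type. The difference was -0.23 (SE 0.128, adjusted p = 0.909). The wild types of the 3 lines averaged 4.17 in 118Q, 4.40 in Ctm and 4.26 in 11Q (limma's F test, adjusted p = 0.468). Glb1 is represented by 1 probe set, so no second probe set checks these values.

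Whether the Glb1 difference of the 118Q line passed the threshold depended on the arrays and controls used. Without 118Q knock-in array 1 it was -0.53 (adjusted p = 0.0359) and with array weights -0.41 (adjusted p = 0.0411). With all 6 wild-type arrays of the 118Q and 11Q lines as controls it was -0.47 (adjusted p = 0.0202). These settings called 3.08%, 4.81% and 6.28% of all probe sets in this line. With the RNA quality measure as a covariate and in the other alternatives run the Glb1 difference stayed short of the threshold. That measure, the 3′ minus 5′ difference of control transcripts, ran between 0.415 and 0.473 in 118Q knock-in arrays and between 0.496 and 0.613 in their wild types, and its part in the result was not tested beyond that covariate.

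The microglial members gave values of different size and sign in the 118Q line, and differences between members were not tested. Ctss had 7.21, 6.65 and 7.07 in 118Q knock-in arrays, against 6.42, 6.87 and 6.77 in their wild types. Knock-in arrays 1 and 3 were the highest of all 18, while knock-in array 2 lay between the wild types. The difference was 0.29 (SE 0.179, 95% interval -0.085 to 0.67, adjusted p = 0.50).

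Ctsh had 4.51, 4.37 and 4.40 in 118Q knock-in arrays, against 4.60, 4.31 and 4.43 in their wild types. The knock-in arrays lay within the range of the wild types, and the difference was -0.019 (SE 0.164, adjusted p = 0.978). The dimmer Ctsh probe set differed by -0.096 (SE 0.251). Ctsz had 6.93, 6.60 and 6.76 in 118Q knock-in arrays, against 6.74, 6.62 and 6.77 in their wild types, a difference of 0.056 (SE 0.126, adjusted p = 0.897). Its other 2 probe sets differed by 0.24 and 0.20 (adjusted p = 0.436 and 0.426), with overlapping groups on all 3.

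**Figure D2:**
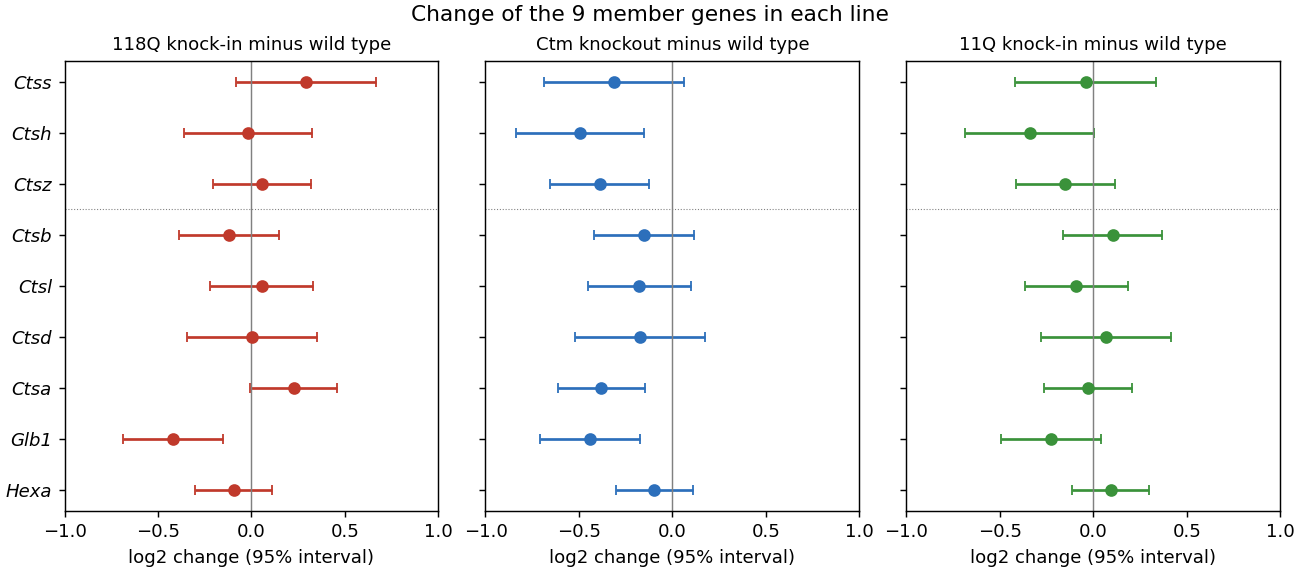
Mutant minus wild type on the log2 scale for the brightest probe set of each member, with limma's 95% interval, one panel per line, microglial members above the dotted line and general members below it. In the Ctm panel all 9 points lie left of 0, between -0.49 and -0.096, while the points of the 118Q and 11Q panels fall on both sides.

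Among the general members of the 118Q line, Ctsa had the highest difference. It had 6.70, 6.41 and 6.66 in 118Q knock-in arrays, against 6.42, 6.47 and 6.20 in their wild types. Knock-in arrays 1 and 3 were above every wild type and array 2 was not. The difference was 0.23 (SE 0.111, adjusted p = 0.373).

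The remaining general members differed by less than the spread between arrays. Ctsb differed by -0.12 (SE 0.127), Ctsl by 0.056 (SE 0.131), Ctsd by 0.0045 (SE 0.165) and Hexa by -0.096 (SE 0.0985). The 95% interval of Ctsd, the main aspartic protease of the lysosome, ran between -0.34 and 0.35. The 4 dimmer Ctsb probe sets lay between -0.15 and 0.063, and the dimmer probe sets of Ctsl and Ctsa at 0.36 and 0.031. Over all 18 member probe sets the median difference was 0.018, beside 0.034 over all probe sets tested. No member probe set had all knock-in arrays above all wild types, which 10.4% of all probe sets did.

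The microglial members differed by a median of 0.056 in the 118Q line and the general members by -0.046. Taken per array, the mean of the 3 microglial members minus the mean of the 6 general members was -0.91, -0.962 and -0.89 in 118Q knock-in arrays, against -1.16, -1.13 and -0.971 in their wild types. Only the difference between arrays carries meaning here, and every knock-in array lay above every wild type, as on 10.4% of single probe sets. Single genes differed between -0.019 and 0.29 among the microglial members and between -0.42 and 0.23 among the general members. The RNA quality measure separated these groups too. Its correlation over 18 arrays was -0.567 with Ctss, -0.714 with Ctsh and -0.452 with Ctsz, and between -0.252 and 0.468 among the general members. Its part in this contrast was not tested. The microglial mean itself was 6.216, 5.872 and 6.079 in knock-in arrays, against 5.918, 5.931 and 5.99 in wild types, with overlap.

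Markers of several cell types moved with this line. Of 14 Purkinje cell markers 4 fell by limma's test and 8 had every knock-in below every wild type (5.88% of all probe sets), with a median of -0.62. Of 13 markers of endothelial cells and pericytes 1 fell and none was above 0, with a median of -0.44. The 9 interneuron markers had a median of -0.54 with none called. Over the alternatives run, 0 to 9 Purkinje cell, 0 to 5 endothelial and pericyte and 0 to 5 interneuron markers were called. Of all 34945 probe sets, 1 was called in this line with the RNA quality covariate and 0 with its arrays alone. The part of these markers in the member values was not tested. Of 24 microglia markers 23 were measured, and 2 rose in the 118Q knock-in by limma's test: Trem2, a lipid receptor of microglia, by 0.89 (SE 0.11, adjusted p = 0.00427), and Tyrobp, its signalling partner, by 1.03 (SE 0.177, adjusted p = 0.0223). None fell, 21 were above 0, and the median was 0.50 beside 0.034 over all probe sets. The mean of the 23 markers ran between 3.65 and 3.89 in 118Q knock-in arrays and between 3.24 and 3.53 in their wild types. Both calls were lost without single arrays. Without 118Q wild-type array 3 Trem2 gave 0.83 (adjusted p = 0.057). Tyrobp gave 0.99 without 118Q knock-in array 3 (adjusted p = 0.128), 0.95 without 118Q wild-type array 1 (adjusted p = 0.0736) and 0.96 without wild-type array 3 (adjusted p = 0.116). With the RNA quality covariate Trem2 stood at 0.84 (adjusted p = 0.0516) and Tyrobp at 1.04 (adjusted p = 0.0697), and with the arrays of this line alone at 0.89 (adjusted p = 0.209) and 1.03 (adjusted p = 0.245). As the mean of its probe sets Trem2 gave 0.41 (adjusted p = 0.0576). None of the 23 markers is a member. The part of the microglia markers in the member values was not tested.

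Ctss was the member whose level lay closest to that of the microglia markers. Over the 18 arrays its Pearson correlation with the mean of the 23 markers was 0.839, and 0.728 after each group mean was subtracted. For Ctsh these values were 0.615 and 0.308, and for Ctsz 0.474 and -0.129. Among the general members Ctsa gave 0.595 and 0.374, Ctsl 0.362 and 0.521, and Glb1 -0.361 and 0.226, so that within groups Ctsl lay above the microglial members Ctsh and Ctsz. The arrays share normalisation and RNA quality, and these correlations are descriptions without a test. The complement gene C1qa, a microglia marker, was also among the 3 genes most alike Ctss out of 9096 brighter genes (r = 0.884), together with Rnase4 (r = 0.889) and Cyp7b1 (r = 0.866).

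**Figure D3:**
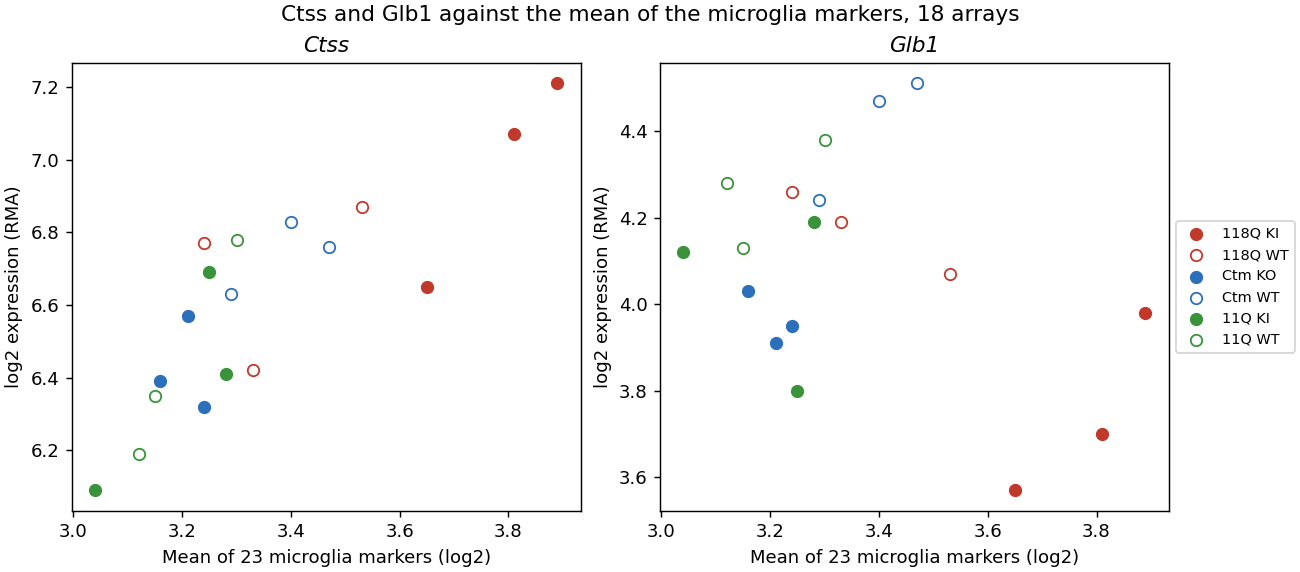
Log2 expression (RMA) of Ctss, left, and Glb1, right, against the mean log2 level of the 23 microglia markers, one point per array, mutants filled and wild types open. Ctss runs along the markers over all arrays (r = 0.839), while the 3 knock-in arrays of the 118Q line, which have the highest marker means, lie between 3.57 and 3.98 in Glb1.

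In the Ctm line all 9 members were lower in the knockouts on their brightest probe sets, none of them past the test. A negative sign alone was shared by 59.9% of all probe sets in this line. In 8 of 18 member probe sets every knockout array lay below every wild type, against 12.4% of all probe sets, and in none did it lie above, against 7.01% of all. On the brightest probe sets this held for Ctss, Ctsh, Ctsz, Ctsb, Ctsa and Glb1. The other 2 were the dimmer probe sets of Ctsz, so that the 8 stand for 6 genes. The median over the 18 was -0.22, beside -0.041 over all probe sets tested.

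All 3 microglial members were among them. Ctsh had 3.70, 3.90 and 4.00 in Ctm knockout arrays, against 4.50, 4.19 and 4.39 in Ctm wild types. The groups did not overlap, and the difference was -0.49 (SE 0.164, 95% interval -0.84 to -0.15, adjusted p = 0.204). The dimmer Ctsh probe set gave -0.26 (SE 0.251, adjusted p = 0.778), with overlap. Ctsz had 6.48, 6.27 and 6.39 in knockouts, against 6.62, 6.74 and 6.95 in wild types, a difference of -0.39 (SE 0.126, adjusted p = 0.191). Its other 2 probe sets gave -0.27 and -0.30 (adjusted p = 0.446 and 0.243), so that all 3 pointed the same way. Ctss had 6.32, 6.57 and 6.39 in knockouts, against 6.83, 6.63 and 6.76 in wild types. The nearest arrays of the groups were 6.57 and 6.63, and the difference was -0.31 (SE 0.179, adjusted p = 0.566).

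Ctsa had 6.21, 6.24 and 6.40 in Ctm knockout arrays, against 6.67, 6.63 and 6.70 in Ctm wild types. The wild types were close together and all above the knockouts, with a difference of -0.38 (SE 0.111, adjusted p = 0.132). Ctsb had 9.32, 9.31 and 9.23 in knockouts, against 9.45, 9.38 and 9.50 in wild types, a narrow gap of -0.15 (SE 0.127, adjusted p = 0.735). Its 3 next brightest probe sets lay between -0.23 and -0.16 and its dimmest gave -0.029, all with overlap. Ctsl differed by -0.18 (SE 0.131), Ctsd by -0.17 (SE 0.165) and Hexa by -0.096 (SE 0.0985), all with overlapping groups. The dimmer probe sets of Ctsa and Ctsl gave 0.062 (SE 0.155) and 0.073 (SE 0.279), the only 2 of the 18 above 0. As means of their probe sets Ctsa gave -0.16 (adjusted p = 0.638) and Ctsl -0.052 (adjusted p = 0.928).

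The Ctm values depended on which wild types they were set against. Ctm wild-type arrays were on the high side for several members: Ctsa averaged 6.67 there, 6.36 in 118Q wild types and 6.38 in 11Q wild types (limma's F test, adjusted p = 0.125). Set against the 6 wild-type arrays of the 118Q and 11Q lines, the Ctm knockouts differed by -0.086 in Ctsa, -0.14 in Ctss, -0.25 in Glb1, -0.28 in Ctsz and -0.41 in Ctsh. Ctsb and Ctsd turned to 0.061 and 0.093. None of the 9 passed the threshold in that comparison, where the smallest adjusted p was 0.0725, for Ctsh. Of all 34945 probe sets, 3456 were called there. Against their own wild types 300 were called higher and 20 lower. With array weights Ctsa (adjusted p = 0.0327) and Glb1 (adjusted p = 0.0458) passed against their own wild types, where 2.94% of all probe sets were called.

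The mean of the microglia markers ran between 3.16 and 3.24 in Ctm knockouts and between 3.29 and 3.47 in Ctm wild types. By limma's test 0 of 23 markers were called, with a median of -0.24. Every knockout lay below every wild type in 6 of them (12.4% of all probe sets) and above in 1 (7.01% of all). That 1 was P2ry12, at 0.54 (SE 0.187, adjusted p = 0.228). In all, 6 of the 23 were above 0, among them Trem2 (0.11) and Csf1r (0.079), while Tyrobp gave -0.41 (adjusted p = 0.386). Of 12 markers of meninges and fibroblasts 7 had every Ctm knockout below every wild type, beside 12.4% of all probe sets, with a median of -0.35, 0 called in the fit reported and up to 6 in the alternatives. The part of both lists in the lower member values was not tested. Microglial minus general members gave -1.41, -1.36 and -1.40 in Ctm knockout arrays, against -1.21, -1.31 and -1.17 in Ctm wild types. Every knockout lay below every wild type, as on 12.4% of single probe sets. The 3 microglial members had a median of -0.39 and the 6 general members of -0.17.

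In the 11Q line 14 of 18 member probe sets were below 0, beside 52.7% of all, with a median of -0.076 beside -0.011 over all. Ctsh had 3.58, 3.96 and 3.75 in 11Q knock-in arrays, against 3.95, 3.80 and 4.57 in 11Q wild types. The difference of -0.34 (SE 0.164, adjusted p = 0.909) rested largely on wild-type array 3, without which it was -0.11. Ctsz differed by -0.15 (SE 0.126) and Ctss by -0.040 (SE 0.179). Ctss had 6.69, 6.41 and 6.09 in knock-ins, against 6.35, 6.19 and 6.78 in wild types, with each group spread over the other. Ctsb, Ctsd and Hexa were at 0.10, 0.070 and 0.093, and Ctsl and Ctsa at -0.091 and -0.028. The mean of 9 choroid plexus markers ran between 2.55 and 5.36 in 11Q knock-ins and between 5.59 and 6.03 in 11Q wild types, and 8 of the 9 markers had every knock-in below every wild type, beside 5.61% of all probe sets (median -2.07). With that mean as a covariate Ctss gave -0.18, Ctsd 0.18, Ctsh -0.29 and Glb1 -0.20, none past the threshold.

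No member probe set of the 11Q line had every knock-in array above every wild type, against 4.28% of all. In 1 it lay below, against 5.61% of all: the dimmest Ctsz probe set, at -0.12 (SE 0.106). The 1 probe set with an unadjusted p under 0.05 was the dimmer one of Ctsl, at -0.62 (SE 0.279, adjusted p = 0.909), near the bottom of the scale at 0.91 in knock-ins and 1.52 in wild types. Microglial minus general members gave -1.47, -1.51 and -1.51 in 11Q knock-in arrays, against -1.46, -1.54 and -0.993 in 11Q wild types, with overlap, and the microglia markers overlapped too, at 3.04 to 3.28 in knock-ins and 3.12 to 3.30 in wild types.

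Differences between the lines were tested as differences of the changes. Between 118Q and Ctm, 0 of 18 member probe sets were called by limma, against 1.63% of all, and 5 had an unadjusted p under 0.05, against 16.5% of all. Ctsa came nearest: its change was 0.61 higher in the 118Q line than in the Ctm line (SE 0.157, adjusted p = 0.0552). It passed when each gene was tested on its brightest probe set alone (adjusted p = 0.0421) and without the dimmer 50% of probe sets (adjusted p = 0.0295). It also passed with trend and robust settings (adjusted p = 0.0414) and with array weights (0.59, adjusted p = 0.0168). Of all probe sets tested, these settings called 2.93%, 7.09%, 2.32% and 6.31%. Ctsa stayed short with averaged probe sets, renewed quantile normalisation, either covariate, the replicate block, only the arrays compared and each array left out. For that difference the dimmer Ctsa probe set gave -0.031 (SE 0.219, adjusted p = 0.965). The same difference was 0.60 for Ctss (SE 0.253, adjusted p = 0.23), 0.44 for Ctsz (SE 0.178, adjusted p = 0.207) and 0.47 for Ctsh (SE 0.231, adjusted p = 0.318). The dimmest Ctsz probe set gave 0.50 (SE 0.15, adjusted p = 0.0907) and passed without the dimmer 50% (adjusted p = 0.0475) and with array weights (0.52, adjusted p = 0.026), and its other dimmer probe set gave 0.51 (SE 0.182, adjusted p = 0.156). For Glb1 it was 0.020 (SE 0.181) and for Hexa 0.00050 (SE 0.139).

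Between 118Q and 11Q, 0 of 18 were called, against 0% of all, and 3 had an unadjusted p under 0.05, against 8.98% of all. Between Ctm and 11Q, 0 of 18 were called, against 0% of all, and 1 had an unadjusted p under 0.05, against 7.91% of all. That 1 was Ctsa, at -0.35 (SE 0.157, adjusted p = 0.585). Among the 3 wild-type groups 0 of 18 were called by the F test, against 10.6% of all, and 2 had an unadjusted p under 0.05, against 24.9% of all. These were Ctsa and the second brightest Ctsb probe set, which averaged 7.32 in 118Q, 7.83 in Ctm and 7.15 in 11Q wild types (adjusted p = 0.0673). It passed without 11Q wild-type array 1 (adjusted p = 0.0402) or without 118Q wild-type array 3 (adjusted p = 0.0365). Without 11Q wild-type array 2 the dimmer Ctsl probe set passed (adjusted p = 0.0476), and without 11Q wild-type array 3 the brighter Ctsh probe set did (adjusted p = 0.0256).

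Other genes of the lysosome were read from 8 lists of the pathway, each gene on its brightest probe set. In the 118Q line 0 of 7 other cathepsins were called and 6 were above 0, with a median of 0.19. Ctso, encoding a further cysteine cathepsin, gave 0.28 (SE 0.0979, adjusted p = 0.179) and Ctsw gave 0.32 (SE 0.156, adjusted p = 0.364). Whether all 8 genes listed as cathepsin inhibitors act on cathepsins was not checked. Among them 1 rose: Cst6, the secreted inhibitor cystatin E/M, by 0.66 (SE 0.138, adjusted p = 0.0422). That call was lost without 118Q knock-in array 2 or 3 or without any 1 of the 118Q wild-type arrays, at 0.58 to 0.76 (adjusted p = 0.078 to 0.195). It was also lost with the RNA quality covariate (0.71, adjusted p = 0.106) and with the arrays of this line alone (adjusted p = 0.245). Cst3, encoding cystatin C, gave 0.41 (SE 0.125, adjusted p = 0.133), with every knock-in above every wild type.

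Of 32 other lysosomal hydrolases, 0 were called in the 118Q line and 16 were above 0, with a median of -0.00098. Neu1, the sialidase that shares a complex with cathepsin A and beta-galactosidase, averaged 5.50 in 118Q knock-ins and 5.04 in wild types, a difference of 0.45 (SE 0.104, adjusted p = 0.0546). The 3 genes of that complex thus stood at 0.45 for Neu1, 0.23 for Ctsa and -0.42 for Glb1, none past the threshold. Neu1 passed with each gene on its brightest probe set (adjusted p = 0.0358), without the dimmer 50% (0.0304) and with trend and robust settings (0.0485). It also passed with array weights (0.00962) and with the 6 wild-type arrays of 118Q and 11Q as controls (0.0161). Of all probe sets, 4.81% were called with array weights and 6.28% with those controls. Over all fits run Neu1 gave between 0.33 and 0.48, with an adjusted p of up to 0.259. Fuca1, encoding a fucosidase, gave 0.26 (SE 0.101, adjusted p = 0.234). Of 4 activators and protectors of hydrolases, 0 were called: Gm2a, the activator that works with beta-hexosaminidase, gave 0.26 (adjusted p = 0.214) and Grn, encoding progranulin, -0.16 (adjusted p = 0.641).

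Of 23 lysosomal membrane proteins, 0 were called in the 118Q line. Cd68, a glycoprotein of macrophage lysosomes, averaged 3.40 in knock-ins and 2.37 in wild types (1.03, SE 0.229, adjusted p = 0.0503). Laptm4b gave -0.84 (SE 0.194, adjusted p = 0.0555), in the other direction. With each gene on its brightest probe set both passed (adjusted p = 0.0345 for Cd68 and 0.0372 for Laptm4b), as they did with array weights (0.0248 for Cd68 and 0.00524 for Laptm4b). Over all fits run the adjusted p reached 0.254 for Cd68 and 0.308 for Laptm4b. Of 15 subunits of the proton pump that acidifies the lysosome, 0 were called, with a median of -0.12, and Atp6v0e gave 0.41 (adjusted p = 0.0796) and Atp6v1c1 -0.38 (adjusted p = 0.219). Of 14 genes of enzyme sorting 0 were called, where the receptors Sorl1 and Sort1 gave -0.62 (adjusted p = 0.0555) and -0.33 (adjusted p = 0.112). Sorl1 passed with each gene on its brightest probe set (adjusted p = 0.0371), without the dimmer 50% (0.0323), with trend and robust settings (0.0261) and with array weights (0.0202). Over all fits run Sorl1 gave between -0.73 and -0.52, with an adjusted p of up to 0.245. Over the alternatives run, up to 4 genes of this list, up to 4 of the proton pump and up to 3 of the membrane proteins were called in the 118Q line. Of 7 regulators of lysosomal genes 0 were called, where the kinase gene Mtor gave -0.32 (adjusted p = 0.15) and Tfe3, a relative of TFEB, 0.24 (adjusted p = 0.246).

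**Figure D4:**
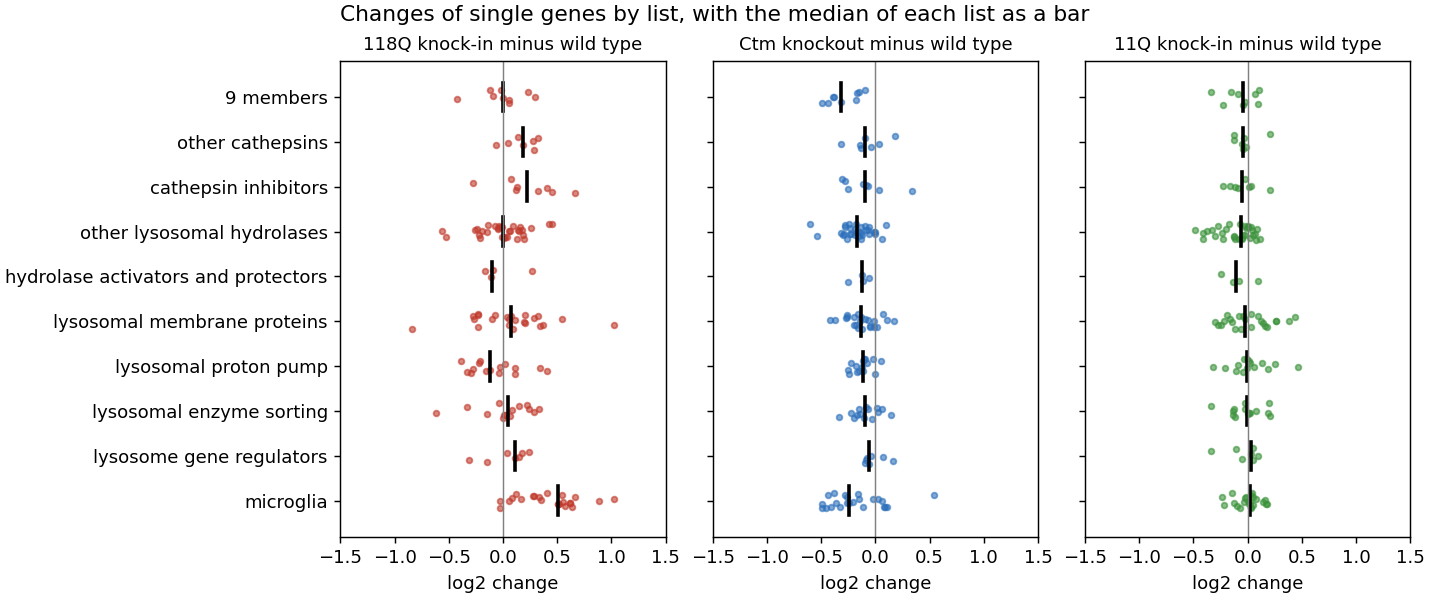
Mutant minus wild type on the log2 scale for single genes, by list, on the brightest probe set of each gene, with the median of each list as a black bar, one panel per line. Among the 10 sets drawn, all medians of the Ctm panel lie left of 0, the microglia markers have the highest median of the 118Q panel (0.50), and the medians of the 11Q panel lie between -0.11 and 0.028.

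In the Ctm line none of the 8 lysosomal lists held a called gene (up to 2 a list over the alternatives run), and the median of each was below 0, between -0.17 for the other hydrolases and -0.059 for the regulators, beside -0.041 over all probe sets. Of the 32 other hydrolases, 2 were above 0, where 59.9% of all probe sets were below 0. In 10 of them every knockout lay below every wild type, beside 12.4% of all probe sets. Fuca1 gave -0.32 (SE 0.101, adjusted p = 0.186) and Smpd1, encoding acid sphingomyelinase, -0.28 (SE 0.0916, adjusted p = 0.191). In 8 of 15 proton pump subunits every knockout lay below every wild type, again beside 12.4% of all probe sets, among them Atp6v0d1, at -0.22 (adjusted p = 0.497), and Atp6v1c1, at -0.25 (adjusted p = 0.567). Against the wild-type arrays of the 118Q and 11Q lines both turned positive, at 0.085 and 0.070.

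Further genes of the Ctm line were Ctsc at -0.31 (adjusted p = 0.623) and Ctse at -0.14 (adjusted p = 0.734) among the other cathepsins. From the list of cathepsin inhibitors, where the targets of each gene were not checked, Serpini1 gave 0.34 (adjusted p = 0.305) and Serpinb6a -0.28 (adjusted p = 0.34). Grn gave -0.25 (adjusted p = 0.514), Gm2a -0.12 (adjusted p = 0.738), and the cholesterol carrier gene Npc2 -0.26 (adjusted p = 0.416). Slc11a1, a metal transporter gene of phagocytes, gave -0.37 (adjusted p = 0.443). The sorting adaptor genes Ap1s1 and Ap1m1 gave -0.33 (adjusted p = 0.177) and -0.23 (adjusted p = 0.461), and the regulators Zkscan3 and Mtor 0.16 (adjusted p = 0.702) and -0.075 (adjusted p = 0.861).

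In the 11Q line 0 genes of these lists were called, and list medians lay between -0.11 and 0.028. Among the hydrolases Arsb, encoding arylsulfatase B, gave -0.27 and Aga, encoding aspartylglucosaminidase, -0.41. Atp6v0b of the proton pump gave 0.47 and Atp6v1g1 -0.32, and the membrane channel gene Tpcn2 0.38 and the sialic acid exporter gene Slc17a5 0.26. Gnptab, which encodes the enzyme that begins the mannose 6-phosphate tag, gave -0.33, Gga1 0.20, Mitf -0.34 and Tfeb 0.098. Ctsf and Ctsw gave 0.21 and -0.12, Csta1 and Serpina3n 0.20 and -0.23, and Gm2a and Sumf1 -0.14 and -0.24. The adjusted p of limma's test was 0.909 or higher for each of these.

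The members also varied together within groups. After each group mean was subtracted, Ctsb, Ctsd and Ctsa formed a trio with Pearson correlations over 18 arrays of 0.817 (Ctsb with Ctsd), 0.81 (Ctsb with Ctsa) and 0.773 (Ctsd with Ctsa). Wild-type array 3 of the 118Q line and of the 11Q line carried the lowest or near lowest values of all 3: for Ctsd 7.29 and 7.20, for Ctsa 6.20 and 6.20, for Ctsb 9.05 and 8.91. Ctss went with Ctsl (0.721) and Glb1 with Ctsl (0.689), while Hexa ran opposite to Glb1 (-0.664) and Ctsl (-0.603). Within the microglial members the values were low, with 0.354 for Ctss and Ctsh, -0.164 for Ctss and Ctsz and -0.117 for Ctsh and Ctsz. Over the arrays as measured, Ctss and Ctsh gave 0.656 and Ctsh and Ctsz 0.577, so that these members went together more across groups than among arrays of one group.

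The genes most alike each general member came from many functions. For Ctsb they were Arhgef17, Trappc9 and Psap (each r = 0.929), where Psap encodes the precursor of the saposins that activate lysosomal hydrolases. For Ctsd the most alike gene was Pld3 (r = 0.891), which encodes a lysosomal nuclease, and within groups Cpt1a (0.934). For Glb1 they were Tgfbr2 (r = 0.895), Tmem41a (0.889) and Cyth3 (0.877), and for Hexa the highest value was lower, with Baz1b at 0.748. For Ctsh the most alike were Gid8 (0.896), Cpq (0.884), a gene of a lysosomal peptidase, and Ten1 (0.866). Each of these values is over 18 arrays and among 9096 genes brighter than the median gene.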

How the data were processed

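The 18 arrays hold cerebellar RNA of 3 mouse lines and their wild-type littermates, 3 arrays per group, grouped by the genotype label. The deposited values are log2 expression per probe set, which the authors made with RMA per the submitters' processing notes; its version is not given in the sources used here. The log base was read from the values: the highest, as a natural logarithm, would stand for an intensity of 191530, above the 65535 of a scanner with 16 bits. The zero point of the scale is not given and values reach -0.26, so the size of differences in dim genes depends on the authors' background step.

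The file held 45101 probe sets. The 64 array controls, 932 probe sets with several symbols and 9160 with none were left out, and the 34945 others were tested. limma 3.58.1 in R 4.3.3 fitted 1 mean per group over all 18 arrays (12 residual and 5.88 prior degrees of freedom), with two-sided moderated tests and Benjamini-Hochberg adjustment over all 34945. This was tested on simulated data. The number of arrays limits the precision.

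The members and the lists were chosen with earlier results of these data known. A gene was described on its brightest probe set, by the mean of the 18 arrays. Named besides the members were called genes of the lysosomal lists, otherwise the 2 with the smallest p of each list and line, and genes that define a cell type. No p is given for the members as a set. Lists held 291 entries, of which 265 were measured. Same-numbered arrays of a line did not deviate together (correlations between -0.122 and 0.22), so the numbers were not used as pairs. Alternatives were the brightest probe set alone, averaged probe sets per gene, omission of the dimmer 50%, trend and robust settings, array weights, renewed quantile normalisation, covariates for RNA quality and choroid plexus, the replicate block, fits to only the arrays compared, an added minimum fold change of 1.5, other wild types as control, and each array left out. Leaving out Ctm wild-type arrays 2 and 3 together was added after seeing the data.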

Additional observations from a re-analysis of the deposited data

How the results depend on the processing

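With each array left out in turn, the count of member probe sets called ran from 0 to 1 in the 118Q line and from 0 to 1 among the wild types, and stayed 0 in the other 5 comparisons. In the fits with 1, 3.08% of all probe sets were called in the 118Q line and 9.74% to 10.4% among the wild types. Between the 118Q and Ctm changes the count was 1 with the brightest probe sets (2.93% of all called) and with trend and robust settings (2.32%). It was 2 there without the dimmer 50% (7.09%) and with array weights (6.31%), beside 1.63% of all in the main fit. With array weights it was 1 in 118Q (4.81% of all called), 2 in Ctm (2.94%) and 1 among wild types (13.3%). With the 6 wild-type arrays of 118Q and 11Q as controls it was 1 in 118Q (6.28%). With the replicate block all 7 counts were 0. They were also 0 with renewed quantile normalisation, both covariates, the mean of probe sets and the arrays of each comparison alone. Some of these fits called almost no probe set, so a 0 among members says little there. The RNA quality covariate called 1 of all 34945 in 118Q, 282 in Ctm, 0 in 11Q and 3 between the 118Q and Ctm changes. The arrays of each comparison alone called 0 in 118Q, 2 in Ctm and 4 in 11Q. Leaving out Ctm wild-type arrays 2 and 3 leaves 1 control array. The members then gave between -0.63 (Ctsh) and -0.089 (Hexa) in Ctm on their brightest probe sets. The replicate block moved 1 call of a named gene across the threshold in the 118Q line, that of Cst6 (adjusted p = 0.0508).

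Several small differences changed sign, all short of the threshold, and the cause was not tested. With array weights Ctsd gave -0.087 and Ctsh 0.012 in 118Q, and Ctsd -0.063 and Ctss 0.027 in 11Q. With the 6 wild-type arrays of 118Q and 11Q as controls Ctsh gave 0.15 in 118Q. With these controls the Ctm line gave 0.061 for Ctsb, 0.093 for Ctsd, 0.0045 for Gm2a, 0.22 for Ap1m1, 0.099 for Slc11a1, 0.085 for Atp6v0d1, 0.070 for Atp6v1c1, -0.13 for Zkscan3 and 0.24 for Ctse. As a mean of probe sets Mtor gave 0.089 in Ctm. With 1 array left out, 118Q values ran from -0.14 to 0.13 for Ctsd, from -0.086 to 0.056 for Ctsh, from -0.070 to 0.17 for Ctsl and from -0.025 to 0.14 for Ctsz. In 11Q they ran from -0.12 to 0.016 for Ctsa, from -0.045 to 0.19 for Ctsb, from -0.12 to 0.18 for Ctsd, from -0.17 to 0.0091 for Ctsl, from -0.19 to 0.13 for Ctss, from -0.27 to 0.047 for Ctsw and from -0.051 to 0.20 for Tfeb. Glb1 kept its sign in every alternative run in all 3 lines. Among the dim members, leaving out 1 array gave between -0.50 and -0.11 for Ctsh in 11Q and between -0.53 and -0.33 for Glb1 in 118Q.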
